A study of Sus scrofa with 12 samples.

Results

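The genes described here encode the cytoplasmic ribosomal proteins, the proteins that with ribosomal RNA make up the large and small subunits of the ribosome. They were chosen by gene symbol alone, as RPL or RPS followed by a number with an optional A or X, together with RPLP0, RPLP1, RPLP2 and RPSA. Of 24358 identifiers in the expression tables, 38 met this rule, 19 of the large subunit and 19 of the small subunit, and each of the 38 symbols stood on 1 identifier. RPS6K kinases, Y-linked genes and paralogues with an L suffix were left out. RefSeq lists 76 symbols of this kind for the pig assembly Sscrofa11.1, so 38 of them were not matched by symbol in the tables. RPLP1 and RPS27A were among 17 further ribosomal protein genes whose identifiers carried no symbol in the tables and were named only through the reference gene table, and RPL41 and RPS19 were matched on no identifier.

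Ribosomal proteins are made in near-equal numbers, because each ribosome holds 1 copy of nearly all of them. Their mRNAs are short, abundant and stable, and most start with a terminal oligopyrimidine (TOP) tract through which mTORC1, acting through LARP1 and other factors, controls their translation as a group. MYC raises the transcription of ribosomal protein and ribosome assembly genes, and pluripotent cells are known for active ribosome production. Single members also have duties outside the ribosome, such as the binding of MDM2 by RPL5 and RPL11.

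The cells were pig PC-iPS cells, induced pluripotent stem cells reprogrammed from pericytes with 4 factors. The first table held 3 libraries of NANOG tdTomato knock-in positive cells (Knock-in) and 3 of the parental wild-type cells (WT), and the question was how NANOG expression went with RNA expression. In the knock-in cells, a FLAG tag, P2A, tdTomato and a puromycin resistance gene driven by its own hPGK promoter had been placed at the end of NANOG by CRISPR/Cas9, and tdTomato-positive cells had been sorted; each line came from its own transfected culture and not from 1 clone, so its cells may carry the insertion on some, all or none of the NANOG copies on chromosomes 1 and 5. The knock-in cells had also been electroporated and selected with puromycin and blasticidin, then with puromycin alone, and the paper describes no such selection for the WT libraries. The part of this selection in the differences between Knock-in and WT was not tested. Both groups are cultured in LCDMV, a medium with LIF, CHIR99021, dimethindene maleate, minocycline and vitamin C. The second table held 3 libraries of knock-in cells treated with Activin A, a ligand that signals through SMAD2/3, and 3 treated with SB431542, an inhibitor of that pathway, both in the same medium without LIF (T1). All 4 groups descend from the same reprogrammed cells, and feeder cells were removed before RNA extraction by letting them attach for 1 h. The labels do not say which libraries of a group came from separate cultures, so for WT, Activin A and SB431542 the p-values below measure only the spread between these libraries, which may be technical.

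Values are FPKM, fragments per kilobase of exon scaled to the mapped fragments of the library, a level corrected for gene length, and they were available in all 12 libraries. The depth of sequencing is unknown because read counts were not used here, and the relative depth read from the lowest values was 0.57 to 0.63 in WT against 1, 0.73 and 0.87 in Knock-in. Each library listed 15339 to 15827 genes above 0. The pluripotency genes SOX2 and LIN28A were present in all 12 libraries, NANOG was 52.0, 101 and 70.4 FPKM in Knock-in against 9.71, 16.4 and 27.6 FPKM in WT, and ZFP42 was listed at 0 in all libraries; POU5F1 was not analysed here. Of 16 pluripotency markers listed, 12 stood on an identifier. The filter of at least 0.1 FPKM in 3 of 6 libraries was passed by 8 in the first table and 9 in the second. Levels of these differed widely: in the second table EPCAM was at 0.28 to 0.39 FPKM and SALL4 at 10.1 to 18.3 FPKM. Of the 8 pluripotency markers tested in the first table, 3 rose in Knock-in and 0 fell at the adjusted p alone. Of 13 fibroblast or feeder markers, the summed level was 465 to 555 FPKM in Knock-in and 255 to 322 FPKM in WT, of which VIM made the greater part, with FAP listed at 0. Of 11 pericyte markers, the summed level was 351 to 508 FPKM in Knock-in and 44.9 to 55.8 FPKM in WT. TAGLN made the greater part in Knock-in but not in WT, where it was at 15.2, 26.6 and 21.0 FPKM. Of 8 trophectoderm markers, the sum was 59.6 to 488 FPKM in Knock-in and 7.52 to 14.5 FPKM in WT, with CDX2 listed at 0. In the second table the keratin gene KRT8 made the greater part of this sum, and HAND1 and ELF5 were below 0.1 FPKM in every library. Of the markers tested, 2 of 9 of fibroblast or feeder cells, 3 of 9 of pericytes and 1 of 5 of trophectoderm rose at the adjusted p alone. By the same rule 4.88% of all genes tested rose and 2.34% fell. In bulk RNA, fewer cells of a type and less RNA per cell cannot be told apart.

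All 38 genes passed the filter of at least 0.1 FPKM in 3 of 6 libraries in both tables, and all were far above it. Values in single libraries ran from 99.6 FPKM for RPL22 in Knock-in 3 to 2699 FPKM for RPL7A in WT 2. Means over the 12 libraries ran from 156 to 2433 FPKM with a median of 640.0 FPKM, and the lowest of them stood at percentile 98.7 of all identifiers. Summed over the 38 genes, they took 7.14% to 8.25% of all FPKM in a library.

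RPL7A, a large subunit protein of a family that binds kinked RNA (chromosome 1, 272961421 to 272965636, Sscrofa11.1), had the highest level of the 38 in every library. It was at 2499, 2379 and 2303 FPKM in Knock-in and 2662, 2699 and 2367 FPKM in WT. In the second table it was at 2408, 2494 and 2417 FPKM with Activin A and 2271, 2298 and 2393 FPKM with SB431542. Its 12 values lay within 1.19-fold of each other, and the Knock-in and WT groups overlapped. RPLP0, the base of the stalk that recruits translation factors (chromosome 14, 40219196 to 40223943), held the next place in every library, at 1912 FPKM over the 12.

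Small subunit genes came next, and their order changed between libraries. Over the 12 libraries RPS18, which sits in the head of the small subunit, averaged 1417 FPKM and RPS15, needed for export of the immature small subunit from the nucleus, averaged 1414 FPKM. RPS3A averaged 1332 FPKM, the X-linked RPS4X 1161 FPKM, RPS6 1135 FPKM and RPS13 1103 FPKM. Among the 38, RPS18 ranked from 3 to 5 and RPS3A and RPS15 from 3 to 7 over the libraries, so the order of these 3 neighbours changed from library to library. RPS4X, RPS6 and RPS13 also traded places, at ranks from 5 down to 9, 11 and 10.

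At the other end stood RPL22, an RNA-binding large subunit protein that most cells can lack (chromosome 6, 67092892 to 67102086), with a mean of 156 FPKM. RPL35, at the exit of the peptide tunnel, averaged 160.4 FPKM, RPL34 179.6 FPKM, RPS20 238 FPKM and RPL37 239 FPKM. RPL22 was the lowest of the 38 in all 3 Knock-in and all 6 libraries of the second table, whereas RPL35 was the lowest in the 3 WT libraries. The mean levels spanned 15.6-fold between RPL22 and RPL7A. Many ribosomal protein genes have processed copies elsewhere in the genome, and reads shared with such copies could have been split or moved between loci, so the order of levels between genes is uncertain to that extent.

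**Figure D1:**
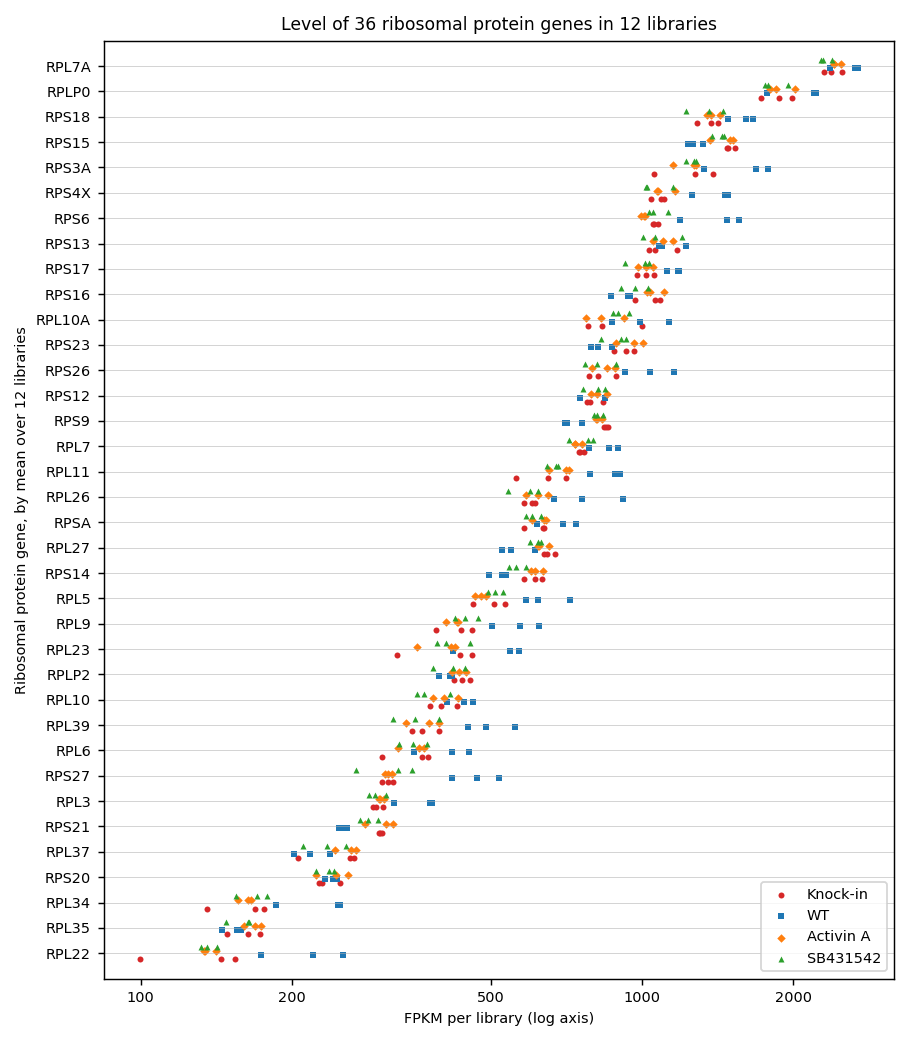
FPKM of 36 of the 38 ribosomal protein genes (rows, ordered by the mean over 12 libraries) in each library, on a log axis; each point is 1 library, with colour and shape for the group. RPL7A and RPLP0 lead in all 12 libraries, and the WT squares lie to the right of the other groups for RPS27, RPL39 and RPL22 and to the left for RPS21 and RPS9.

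The order of the 38 genes was much the same in all libraries. Spearman's rho between pairs of the 12 libraries, across the 38 genes, ran from 0.924 to 0.998 with a median of 0.985; genes are not independent replicates, and the value is given as a description. The ratio of a gene's highest to its lowest library over all 12 had a median of 1.33. It was under 1.5 for 25 genes, and smallest for RPS12 at 1.13, a gene named after its values were seen. It was over 1.5 for the other 13, and largest for RPL22 at 2.55.

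Replicate libraries of a group were close. In the Knock-in and WT table, the median within-group SD of log2(FPKM + 1) was 0.10 for the 38 genes, against 0.18 for all 14014 genes tested and 0.15 for the 248 other genes at or above the lowest of the 38. In the Activin A and SB431542 table it was 0.080 for the 38 genes, against 0.15 for all 13999 genes tested and 0.11 for the 305 other genes at or above the lowest of the 38. RPL22 (0.31), RPL23 (0.25) and RPL34 (0.22) varied most within groups in the first table, and RPS27 (0.14), RPL39 (0.13) and RPL23 (0.12) in the second. RPS21 varied least in the first table, with an SD of 0.020.

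The first comparison, knock-in positive against WT cells, asked which genes went with higher NANOG. No ribosomal protein gene changed 2-fold. Most large subunit genes had lower means in Knock-in, while small subunit genes were split between lower and higher, and RPS27 was the 1 gene whose fall passed the test. The differences were small: the log2 fold changes (Knock-in over WT, on the log2(FPKM + 1) scale) ran from -0.70 to 0.24 in the 36 genes described by name or plotted here.

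Tests were made with limma on all 14014 genes at once, with Benjamini-Hochberg adjusted p-values over all of them. A gene was called at an adjusted p of at most 0.05 with a fold of at least 2, or at the adjusted p alone. By fold and adjusted p, 0 of the 38 were called, where 2.31% of all genes tested were. At the adjusted p alone, 0 of 38 were higher in Knock-in, against 4.88% of all genes, and 1 of 38 was lower, against 2.34%. At an unadjusted p under 0.05, 6 of 38 were higher (16.1% of all genes) and 12 were lower (12.5% of all genes). The groups did not overlap, with every Knock-in library above every WT library, for 10 of 38 (19% of all genes), and with every Knock-in library below for 15 of 38 (16.7% of all genes).

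RPS27 is a zinc-binding protein of the small subunit (chromosome 4, 95697869 to 95699481). Its level was 318, 303 and 312 FPKM in Knock-in and 519, 469 and 417 FPKM in WT. The Knock-in libraries lay close together and below all 3 WT libraries. RPS27 fell from 468 ± 51.0 FPKM to 311 ± 7.51 FPKM (mean ± SD, n = 3). On the log2 scale the difference was -0.58, standard error (SE) 0.11, with a limma adjusted p of 0.026. The exact two-sided permutation test of 3 against 3 libraries gave p = 0.1, the smallest it can give. The call was lost when any library other than WT 3 was left out, with adjusted p-values up to 0.10, while the log2 fold change stayed between -0.66 and -0.51 over all 17 alternatives.

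RPL22 had the lowest log2 fold change of the 38. Its level was 155, 145 and 99.6 FPKM in Knock-in and 221, 254 and 174 FPKM in WT. Knock-in 3 stood well below the other Knock-in libraries and WT 3 below the other WT libraries, but the groups did not overlap. The log2 fold change was -0.70 (SE 0.20, adjusted p 0.074), larger than the within-group SD of 0.31 but not past the threshold.

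RPL34 and RPL39, large subunit proteins of which RPL39 lines the peptide exit tunnel, had the next lower means. RPL34 was at 176, 169 and 135 FPKM in Knock-in and 250.1, 247 and 186 FPKM in WT, a log2 fold change of -0.50 (SE 0.15, adjusted p 0.088). RPL39 was at 364, 347 and 393 FPKM in Knock-in and 558, 488 and 449 FPKM in WT, a log2 fold change of -0.43 (SE 0.11, adjusted p 0.06). In both genes each Knock-in library lay below each WT library, and WT 3 was the lowest of the WT libraries.

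RPL5 and RPL11 carry 5S ribosomal RNA into the large subunit and bind MDM2 when assembly is disturbed. RPL11 was at 706, 649 and 561 FPKM in Knock-in and 902, 884 and 786 FPKM in WT, a log2 fold change of -0.43 (SE 0.12, adjusted p 0.074). RPL5 was at 534, 508 and 461 FPKM in Knock-in and 619, 718 and 586 FPKM in WT, a log2 fold change of -0.35 (SE 0.12, adjusted p 0.10). Neither gene passed the test, and the groups did not overlap in either.

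RPS6, the small subunit protein that S6 kinases phosphorylate downstream of mTORC1, was at 1073, 1055 and 1050.2 FPKM in Knock-in and 1562, 1479 and 1187 FPKM in WT. The Knock-in libraries lay within a narrow band below all WT libraries, and WT 3 lay nearest to them. The log2 fold change was -0.40 (SE 0.13, adjusted p 0.097). RPS4X was at 1091, 1039.9 and 1103 FPKM in Knock-in and 1483, 1462 and 1254 FPKM in WT, also without overlap, a log2 fold change of -0.37 (SE 0.11, adjusted p 0.082).

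The genes with higher means in Knock-in were mostly of the small subunit. RPS21 was at 299, 299.9 and 303 FPKM in Knock-in and 249, 255 and 258 FPKM in WT, a log2 fold change of 0.24 (SE 0.08, adjusted p 0.11). The spread of RPS21 within each group was a few FPKM at most, and each Knock-in library lay above each WT library.

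RPS15 was at 1483, 1478 and 1529.7 FPKM in Knock-in and 1263, 1233 and 1319 FPKM in WT. RPS14, of the platform of the small subunit, was at 632, 581 and 612 FPKM in Knock-in and 526, 494 and 535 FPKM in WT. RPS9, near the mRNA entry channel, was at 855, 838 and 849 FPKM in Knock-in and 703, 759.6 and 707 FPKM in WT. All 3 genes had non-overlapping groups and log2 fold changes of 0.24, 0.23 and 0.23, with adjusted p-values of 0.17, 0.15 and 0.16.

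**Figure D2:**
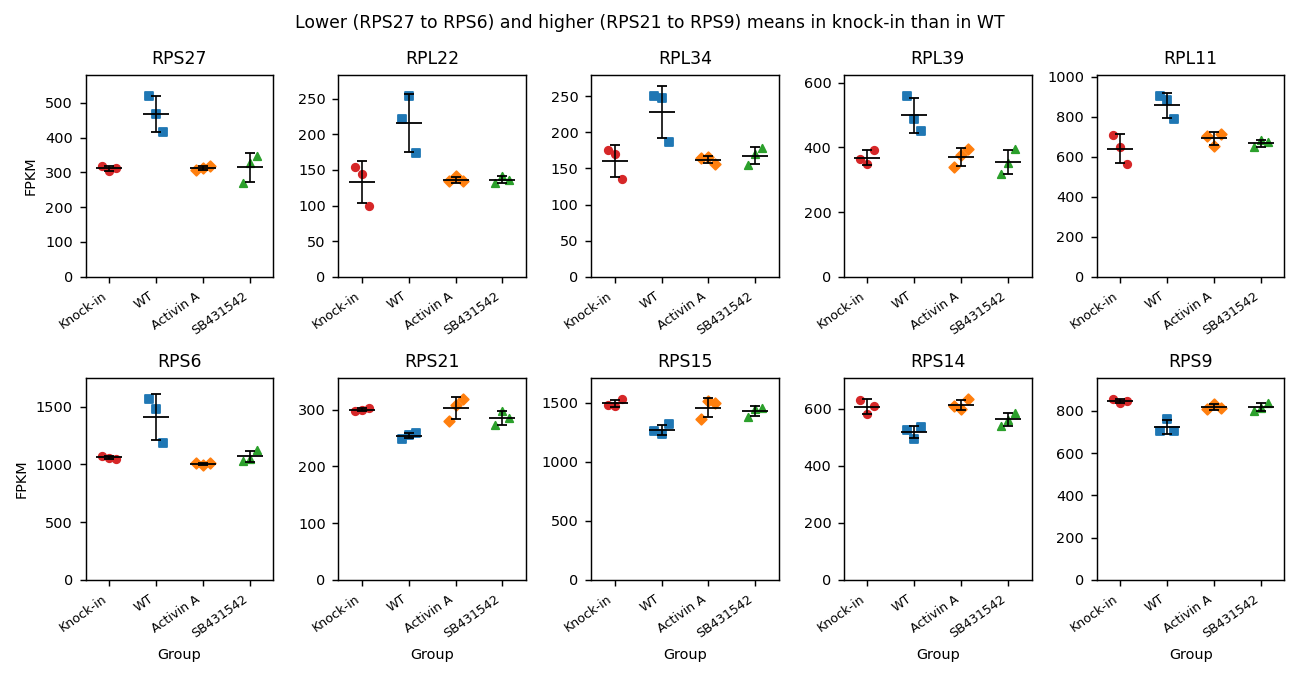
FPKM per library (points, 3 per group) with mean and SD (bars) for 6 genes with lower and 4 with higher means in Knock-in than in WT; the FPKM axes start at 0 and differ between panels. The Knock-in and WT points do not overlap in any of the 10 panels. The Activin A and SB431542 points come from the other table, and the tables were not tested against each other.

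Among the most abundant genes, the log2 fold change was -0.10 for RPL7A (95% interval -0.38 to 0.17), and it turned to 0.15 under quantile normalization. RPLP0 was at 1878, 1725 and 1986 FPKM in Knock-in and 2204, 2223 and 1776 FPKM in WT, overlapping groups with a log2 fold change of -0.15 (SE 0.13, adjusted p 0.51). RPLP2, a stalk protein held by RPLP0, was at 437, 422 and 453 FPKM in Knock-in and 393, 414 and 418 FPKM in WT, a log2 fold change of 0.098 (SE 0.087, adjusted p 0.49). RPSA, also known as the laminin receptor precursor, had a log2 fold change of -0.14 (SE 0.11, adjusted p 0.42), and RPL10, which joins the large subunit late in its assembly, one of -0.12 (SE 0.098, adjusted p 0.43). RPS18 and RPS3A had log2 fold changes of -0.22 and -0.37 with adjusted p-values of 0.22 and 0.18. Among the lowest genes, RPL35 differed by 0.075, RPL37 by 0.15 and RPS20 by -0.032, all with overlapping groups.

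Over the 38 genes, 25 means were lower in Knock-in and 13 higher. Lower means were seen in 7034 of all 14014 genes tested, and in 109 of the 248 other genes at or above the lowest of the 38. The median log2 fold change of the 38 was -0.15, against -0.0014 over all genes tested and 0.040 over those 248. Of the 38, 23 (60.5%) were over 0.2 in size, as were 54.8% of all genes tested. In the large subunit 15 of 19 means were lower, with a median of -0.22. In the small subunit 10 of 19 were lower and 9 higher, with a median of -0.032, which turned positive under quantile normalization (0.043) and was 0.00010 without WT 1. The median of the large subunit was negative in all 17 alternatives tried.

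**Figure D3:**
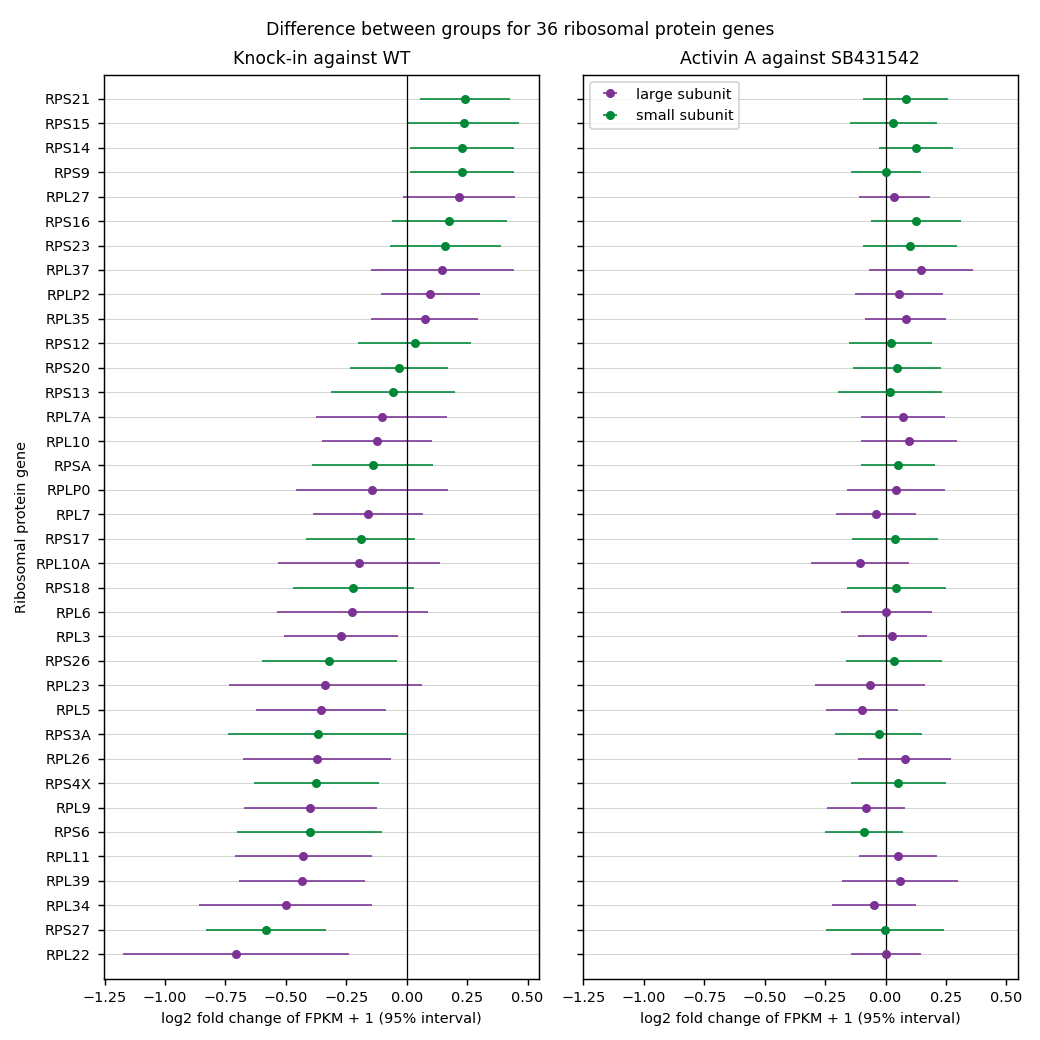
log2 fold change of FPKM + 1 with its 95% interval for 36 of the 38 genes (rows, ordered by Knock-in against WT), in the 2 comparisons, coloured by subunit. On the left the values run from -0.70 to 0.24 and the 4 highest are all small subunit genes. On the right all lie between -0.11 and 0.15, and every interval, from the fit without the library number as a block, includes 0.

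As a share of the summed FPKM of each library, the 38 genes took 7.56%, 7.23% and 7.42% in Knock-in and 8.17%, 8.25% and 7.32% in WT. WT 3 fell within the Knock-in range, and the groups overlapped. The means were 7.40% ± 0.17 (SD, n = 3) and 7.91% ± 0.52 (SD, n = 3). The large subunit genes took 3.04% to 3.22% in Knock-in and 3.14% to 3.70% in WT, and the small subunit genes 4.18% to 4.36% and 4.17% to 4.58%. The ratio of small to large subunit share was 1.35, 1.38 and 1.43 in Knock-in and 1.28, 1.23 and 1.33 in WT. This ratio, which does not depend on the scaling of a library, was higher in each Knock-in than in each WT library, by 0.11 in the mean. With the 17 genes named only through the reference table added, it was 1.27 to 1.34 in Knock-in and 1.13 to 1.23 in WT, again without overlap.

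The mitochondrially encoded genes take a large part of all FPKM. The 13 protein genes of the mitochondrial genome took 9.71% to 11.5% of summed FPKM in Knock-in and 13.9% to 16.4% in WT. Within groups these shares had no common order: Knock-in 2 and WT 3 had the highest mitochondrial and the lowest ribosomal protein share of their groups, while SB431542 3 had the highest of both. With them left out of the sum, the 38 ribosomal protein genes took 8.16% to 8.47% in Knock-in and 8.75% to 9.71% in WT, without overlap. The part of the mitochondrial share, of relative depth and of the pericyte and trophectoderm markers in the differences of the ribosomal protein genes was not tested.

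**Figure D4:**
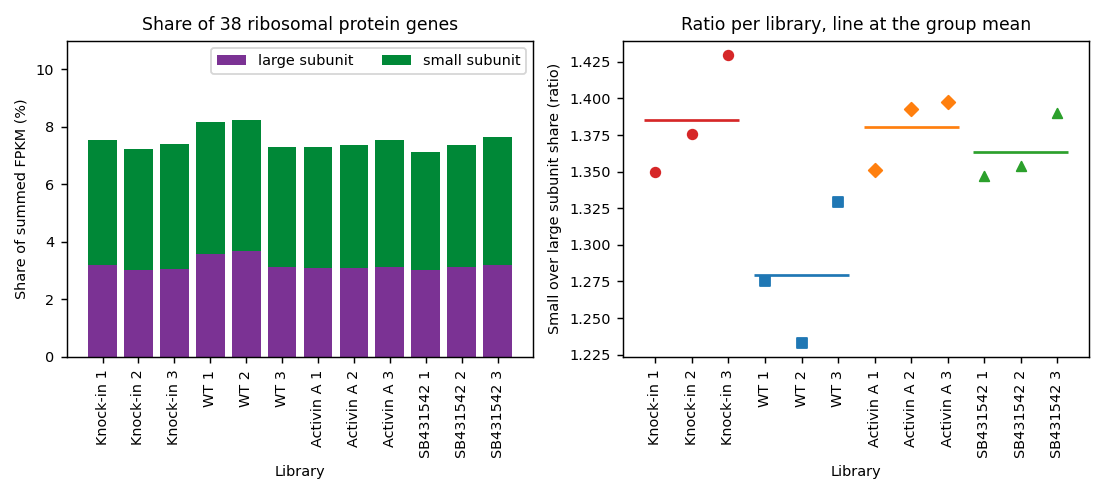
Left, share of summed FPKM taken by the 38 genes in each library (bars, from 0), split by subunit; right, ratio of the small to the large subunit share (points, with a line at each group mean; the axis does not start at 0). The 3 WT libraries have the lowest ratios, 1.23 to 1.33, against 1.35 to 1.43 in Knock-in.

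WT 3 stood apart from the other WT libraries. It was the lowest WT library for 29 of the 38 genes, and the median deviation of the 38 genes from their mean over the table was -0.051 in WT 3 against 0.14 in WT 1 and 0.12 in WT 2. Without WT 3, 8 of 38 genes were lower at the adjusted p alone, where 3.43% of all genes were, and 0 were higher, where 6.93% of all genes were. These were RPS27 (adjusted p 0.017), RPS6 (0.03), RPL34 (0.038), RPL39 and RPS4X (0.04 each), RPL9 (0.046), RPL22 (0.048) and RPL26 (0.049), of which RPL26 was named after its values were seen. Leaving out any 1 of the other 5 libraries gave 0 calls among the 38. WT 3 was singled out by the values of these same genes. Leaving it out raised the WT mean of most of them, so the 8 calls are no separate support for a fall.

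**Figure D5:**
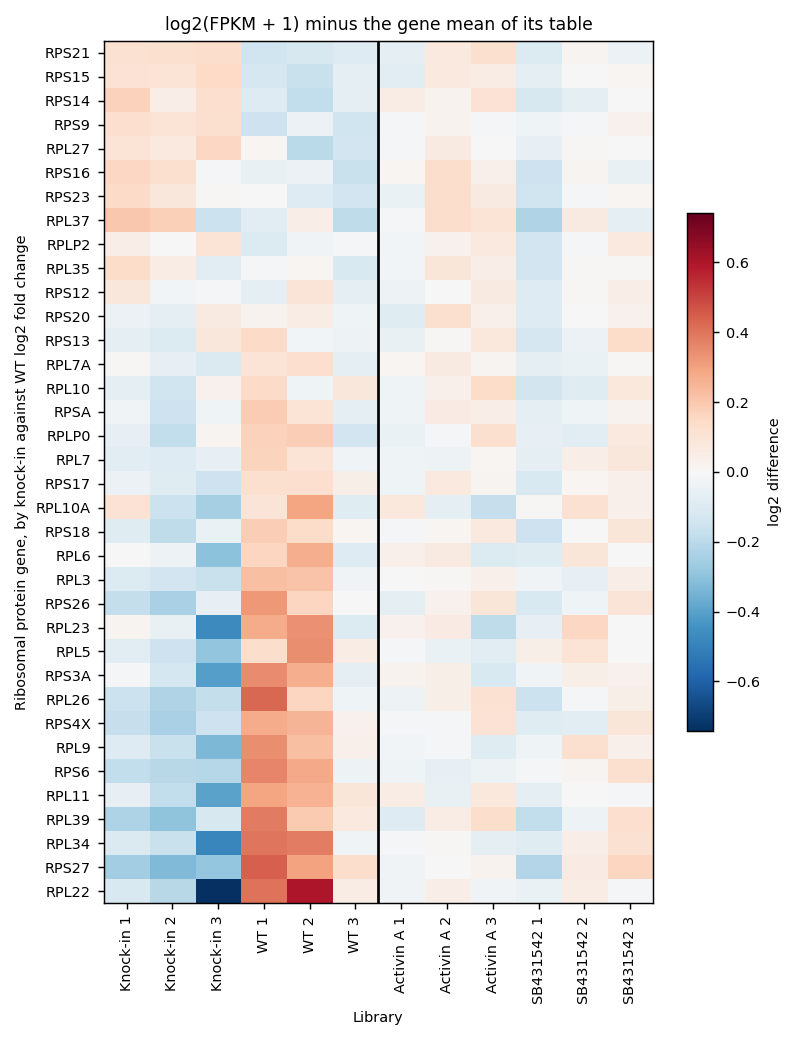
log2(FPKM + 1) of 36 of the 38 genes (rows, ordered by Knock-in against WT log2 fold change) in each library (columns) minus the mean of that gene over the 6 libraries of its table, red above and blue below; a black line parts the tables. WT 1 and WT 2 are red in the lower rows while WT 3 is near white, and the 6 columns of the second table are paler than those of the first.

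Genes around the ribosomal proteins were described by lists compiled from general knowledge. Of 16 other TOP mRNAs tested, 1 was higher at the adjusted p alone in Knock-in and 0 lower, with a median log2 fold change of -0.29. The gene that rose was EEF1D, a subunit of the factor that recharges EEF1A, at 0.41 (SE 0.083, adjusted p 0.033). EIF3E, a subunit of an initiation factor, had 133, 138 and 144 FPKM in Knock-in against 257, 213 and 166 FPKM in WT, at -0.59 (SE 0.16, adjusted p 0.062), without overlap.

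At the adjusted p alone, 4.88% of all genes tested were higher and 2.34% lower, the shares against which the list counts here stand. Of 51 ribosome assembly genes, 9 rose and 0 fell, with a median of 0.22 and 39 means higher. RRS1, needed for 5S ribosomal RNA to join the large subunit, was at 27.5, 32.6 and 26.7 FPKM in Knock-in and 12.5, 18.0 and 15.3 FPKM in WT, at 0.89 (SE 0.15, adjusted p 0.023). BOP1, of the PeBoW complex of large subunit assembly, was at 0.74 (SE 0.14, adjusted p 0.027). The assembly genes and the ribosomal protein genes thus had medians of opposite sign in the same libraries. Of 67 mitochondrial ribosomal protein genes, 5 rose and 0 fell, with a median of 0.11; MRPL28 had 0.94 (SE 0.16, adjusted p 0.021). Of 11 regulators tested, 1 rose and 0 fell, with a median of 0.22 and 8 means higher. MYC, among the 3 with lower means, was at 193, 218 and 251 FPKM in Knock-in and 335, 206 and 275 FPKM in WT, overlapping groups at -0.28 (SE 0.19, adjusted p 0.34). Of 46 initiation factor genes, 2 rose and 2 fell, and of 5 paralogues of ribosomal proteins left out by the rule 0 were called.

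The second comparison, Activin A against SB431542 in knock-in cells, asked which genes respond to the Activin pathway. NANOG was 109, 195 and 157 FPKM with Activin A and 11.8, 27.2 and 11.8 FPKM with SB431542, at 3.18 (SE 0.35, adjusted p 0.042). In the same libraries no ribosomal protein gene passed the test in either direction. In the same 36 genes the log2 fold changes (Activin A over SB431542) ran from -0.11 to 0.15. In the fit without the library number as a block, every 95% interval lay between -0.31 and 0.36 and included 0.

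Of the 38 genes, 0 were called by fold and adjusted p, where 0.0929% of the 13999 genes tested were, and 0 at the adjusted p alone, where 0.136% were. At an unadjusted p under 0.05 in limma, 0 of 38 passed, against 12.8% of all genes. With the library number as a block, since libraries of the same number deviated together, 403 of all genes passed the adjusted p in place of 19, 2.88% of those tested, and again 0 of 38 did, with the lowest adjusted p among them at 0.11. At an unadjusted p under 0.05 with the block, 4 of 38 passed, all higher with Activin A and RPL37, RPS14 and RPS16 among them, against 23.7% of all genes. Between libraries of the same number, 18 of 38 were higher with Activin A in 3 of 3 pairs and 2 were lower in 3 of 3. The matching share over all genes is not given, so whether this count is unusual cannot be told. The groups did not overlap for 2 genes higher with Activin A (9.19% of all genes) and for 2 lower (10.8% of all genes).

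RPL7A and RPS14 were those higher with Activin A in every library. RPS14 was at 610.2, 599.9 and 634 FPKM with Activin A and 542, 561 and 587 FPKM with SB431542, a log2 fold change of 0.13 (SE 0.065, adjusted p 0.47). The difference of RPL7A, whose values are given above, was 0.072 (SE 0.072, adjusted p 0.71).

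RPL5 and RPS6 were those lower with Activin A in every library. RPL5 was at 487, 477 and 465 FPKM with Activin A and 508, 529 and 492 FPKM with SB431542, a log2 fold change of -0.097 (SE 0.062, adjusted p 0.56). RPS6 was at 1011, 995 and 1008 FPKM with Activin A and 1031, 1050.1 and 1124 FPKM with SB431542, a log2 fold change of -0.088 (SE 0.067, adjusted p 0.63). The gaps between groups were a few percent of the level in both genes, and the exact two-sided permutation test gave p = 0.1 for each, the smallest 3 against 3 allow.

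RPL37 was at 244, 269 and 263 FPKM with Activin A and 210.4, 257 and 235 FPKM with SB431542, overlapping groups with a log2 fold change of 0.15 (SE 0.09, adjusted p 0.54) and a 95% interval of -0.068 to 0.36. That interval is from the fit without the block. With the block, its unadjusted limma p was 0.029 and its adjusted p 0.16. RPS16, RPS23, which lines the decoding centre, and RPL10 were, like RPL37, higher with Activin A in 3 of 3 pairs, with log2 fold changes of 0.13, 0.10 and 0.098, all with overlapping groups.

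RPL10A, of the stalk at which the spent tRNA leaves, had the lowest. It was at 919, 829 and 773 FPKM with Activin A and 876, 939.8 and 894 FPKM with SB431542, overlapping groups with a log2 fold change of -0.11 (SE 0.085, adjusted p 0.64). RPL9, RPL23 and RPL34 lay at -0.081, -0.064 and -0.048.

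RPS27 and RPL22, the genes with the lowest values in the first comparison, showed no difference that passed the test here. RPS27 was at 307, 311 and 318 FPKM with Activin A and 269, 326 and 348 FPKM with SB431542. The SB431542 libraries spread to both sides of the Activin A libraries, and the 95% interval of the log2 fold change was -0.25 to 0.24. RPL22 was at 134, 141 and 134 FPKM with Activin A and 132, 142 and 135 FPKM with SB431542, a 95% interval of -0.15 to 0.15. The intervals bound the difference at under 1.19-fold for RPS27 and under 1.11-fold for RPL22. RPLP0, RPLP2, RPSA, RPL11, RPS4X and RPL39 had log2 fold changes of 0.043 to 0.061 with overlapping groups.

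Over the 38 genes, 29 means were higher with Activin A and 9 lower, with a median log2 fold change of 0.041. Over all genes tested the median was -0.0040, and 6874 of 13999 means were higher. Over the 305 other genes at or above the lowest of the 38, the median was 0.040 and 203 means were higher. The shift of the 38 was thus like that of other abundant genes. The median of the 38 was 0.036 in the large and 0.045 in the small subunit. It rested on SB431542 1, the lowest SB431542 library for 34 of 38 genes. Without that library the median of the 38 was 0.0030 and 19 of their means were higher. Shares of summed FPKM were 7.30%, 7.39% and 7.53% with Activin A and 7.14%, 7.36% and 7.64% with SB431542, overlapping groups with means of 7.41% ± 0.12 and 7.38% ± 0.25 (SD, n = 3 each). The ratio of small to large subunit share was 1.35, 1.39 and 1.40 with Activin A and 1.35, 1.35 and 1.39 with SB431542, and overlapped.

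In the related lists, 0 genes passed the adjusted p alone among 16 TOP mRNAs, 51 assembly genes, 67 mitochondrial ribosomal protein genes, 46 initiation factors and 11 regulators, with medians of 0.018, -0.037, 0.035, 0.034 and 0.029. With the library number as a block, 2 of the 11 regulators passed, MYC (adjusted p 0.044) and EIF4EBP1, an inhibitor of cap-dependent translation that is also on the initiation factor list (-0.77, adjusted p 0.045), where 2.88% of all genes did. MYC was at 232, 252 and 311 FPKM with Activin A and 192, 182 and 225 FPKM with SB431542, groups without overlap at 0.40 (SE 0.13, adjusted p 0.29) without the block. PABPC1, the poly-A binding protein and a TOP mRNA, was at 349, 361 and 346 FPKM with Activin A and 399, 426 and 415 FPKM with SB431542, at -0.23 (SE 0.06, adjusted p 0.21). The 13 mitochondrially encoded protein genes took 10.2% to 11.3% of summed FPKM with Activin A and 9.43% to 11.5% with SB431542, and these ranges overlapped. Of the cell-type markers, the pericyte gene ACTA2 was lower with Activin A (-1.13, SE 0.10, adjusted p 0.035). With the block, 3 of 9 fibroblast or feeder, 1 of 9 pericyte and 3 of 5 trophectoderm markers passed. COL1A2, COL3A1, GATA2 and TFAP2C were higher with Activin A, and VIM, ACTA2 and KRT8 lower. Of 9 pluripotency markers 2 passed, NANOG higher and LIN28A lower.

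The comparisons share no libraries. Across the 38 genes, the log2 fold changes of Knock-in against WT and of Activin A against SB431542 had a Pearson r of 0.58 and a Spearman rho of 0.56, against a Pearson r of 0.024 across 13696 genes tested in both. The sign was the same for 22 of 38. These are correlations across genes, which share libraries and are not independent replicates, so they are given as descriptions with no test. RPS27 and RPL22, the lowest in the first comparison, were near 0 in the second.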

How the data were processed

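RNA of 12 libraries, selected with oligo(dT), was sequenced, and the authors used Trim Galore for trimming, HISAT2 2.0.4 for alignment (genome Ssc11.1) and StringTie 1.3.3 with Ensembl annotation for FPKM; their read counts (featureCounts 1.6.4, tested with DESeq2) were not used here. FPKM values were used as deposited, in 2 tables of 6 libraries that were fitted apart and never tested across. Because FPKM is a relative unit, a large class such as the mitochondrial transcripts moves all other values. Oligo(dT) selection and reads shared among gene copies could also affect these genes, which was not tested.

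Genes with at least 0.1 FPKM in 3 of 6 libraries were kept, 1 was added before log2, and limma 3.58.1 was run in R 4.3.3 with a variance trend; p-values were adjusted over all genes tested. The test was checked on simulated data, with changes larger than any of the 38 genes showed and with noise independent between libraries. That check does not cover differences as small as those reported here, or libraries that deviate together. Coordinates are those of RefSeq for Sscrofa11.1, matched by symbol. Members and lists were chosen with earlier results of these data known. Genes named are, per table, the 6 highest and 4 lowest means, per comparison every called gene, the 6 largest log2 fold changes in each direction and the 3 largest within-group SDs, a set of genes with known roles, and at most 3 genes per list and direction; 2 of the 38 genes and 1 regulator are not reported here by name, although every count, share and median includes them.

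Libraries carry numbers 1 to 3 in their labels. In the second table libraries of the same number deviated together across all genes (r = 0.40 to 0.59), so the number was used as a block beside the fit without it; the pairing comes from the label numbers and this check. Other settings tried were a filter of 1 FPKM or none, a pseudocount of 0.1 or 0.01, TPM with and without mitochondrial or ribosomal protein genes, median-ratio scaling, quantile normalization, no variance trend, the block, and leaving out each library. The option of 1 identifier per symbol changed nothing, since no symbol was repeated. Plots used Python 3.11.15 and matplotlib 3.10.9.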

Additional observations from a re-analysis of the deposited data

How the results depend on the processing

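Each result was recomputed under 17 alternative settings, and the counts, medians and shares also with 1 identifier per symbol, which changed nothing, and with the 17 reference-named genes added, which was chosen after seeing the data. In the first comparison, the 0 calls by fold and adjusted p, the 0 calls upward and the negative median log2 fold change (-0.22 to -0.11) were kept under every setting. The count of genes lower at the adjusted p alone, 1, became 2 with a filter of 1 FPKM, 3 with TPM without mitochondrially encoded genes, 4 with quantile normalization and 4 of 55 with the reference-named genes added; leaving out 1 library at a time gave 0 to 8, with 8 without WT 3 and 0 without any of the others. The difference in share of summed FPKM, -0.514 percentage points, was -1.07 without mitochondrially encoded genes in the sum, and -0.814 to -0.344 leaving out 1 library at a time. The cause was not tested. Over all genes, the calls by fold and adjusted p, 324, were 538 and 501 with pseudocounts of 0.1 and 0.01, 493 with TPM without ribosomal protein genes, 199 with no filter, and 145 to 446 leaving out 1 library at a time; the 1012 at the adjusted p alone were 156 to 1432 leaving out 1 library and 585 with no filter. Single genes changed sign in 5 of 646 gene and setting pairs in the first comparison, in RPS12, RPS13, RPL35 and RPL7A, and in 51 of 646 in the second.

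In the second comparison, 0 calls were made under every alternative, and the median log2 fold change stayed positive, from 0.0030 to 0.076. The share difference of 0.0272 percentage points was -0.0942 to 0.159 leaving out 1 library at a time; it was negative without Activin A 3 and without SB431542 1. Over all genes, the 19 genes past the adjusted p were 0 to 5 leaving out 1 library at a time, 8 with a pseudocount of 0.01, 11 with no filter, 5 with a filter of 1 FPKM, 10 with no variance trend and 403 with the block. In the first comparison, the shared library numbers did not pair the samples (correlations of deviations across all genes -0.018 to 0.094); with the replicate block, 360 genes passed the adjusted p in place of 1012, and 1 of the 38 did, RPL22 (adjusted p 0.044) in place of RPS27 (0.052). Of the reference-named genes, RPL23A passed with the block (0.045), and RPLP1 (0.059) and RPL36A (0.068) did not. Over all alternatives the adjusted p ran from 0.015 to 0.10 for RPS27 and from 0.044 to 0.16 for RPL22. In the second comparison the block changed no other call among the 38. Depth is unknown, so no counting error could be given; the levels are far from the low end of the tables.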

Other observations

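The 17 ribosomal protein genes whose identifiers carry no symbol in the tables were looked at after the data had been seen, under the names the reference gene table gives them. Between Knock-in and WT, 3 of 17 fell at the adjusted p alone and 0 rose, where 2.34% of all genes tested were lower and 4.88% higher, with 10 means lower and 7 higher. RPLP1, the partner of RPLP2 on the ribosomal stalk, was at 508, 499.6 and 511 FPKM in Knock-in and 938, 939 and 664 FPKM in WT, at -0.72 (SE 0.15, adjusted p 0.035). RPL36A was at 603, 567 and 632 FPKM in Knock-in and 1124, 1143 and 799 FPKM in WT, at -0.75 (SE 0.15, adjusted p 0.035). RPL23A, at the tunnel exit, was at 242, 232 and 253 FPKM in Knock-in and 394, 363 and 353 FPKM in WT, at -0.61 (SE 0.091, adjusted p 0.016). The genes that fell are all of the large subunit, and WT 3 was the lowest WT library for each. RPS28, of the small subunit, was at 651, 641 and 749 FPKM in Knock-in and 439, 391 and 549.9 FPKM in WT, at 0.57 (SE 0.14, adjusted p 0.056). RPS27A, made as a fusion with ubiquitin, differed by -0.13 (SE 0.12, adjusted p 0.50). Between Activin A and SB431542, 0 of 17 passed.

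RPS24 varied within groups more than any of the 38 genes over the 12 libraries. It was at 229.9, 227 and 468 FPKM in Knock-in and 391, 627 and 239.6 FPKM in WT, and at 204, 592 and 632 FPKM with Activin A and 189, 231 and 522 FPKM with SB431542. Its highest library was 3.34 times its lowest, where RPL22, the most variable of the 38, reached 2.55, and all 4 groups overlapped. RPS2 ranged from 676 to 1349 FPKM.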
